A study of Mus musculus with 12 samples.

Results

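The Zfp genes of the mouse encode zinc finger proteins named by number. The set described here holds the 203 genes whose symbol is Zfp followed by a number, Zfp36 left out, that had at least 1000 spliced reads summed over the 8 libraries of the first experiment. They were chosen by that sum from 313 genes with such a symbol, among 18717 gene symbols with any spliced read. The members nearest to the threshold had 1020 reads (Zfp668), 1076 reads (Zfp870) and 1078 reads (Zfp229), and the nearest genes left out had 996 reads (Zfp235), 965 reads (Zfp759) and 958 reads (Zfp629). All 203 members passed the filter on low counts in both experiments, which the choice by read sum makes likely.

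Polyadenylated RNA came from wild type NMRI mice. The first experiment had neocortex at postnatal day 49 (P49) and at postnatal day 10 (P10), and cells dissociated from the neocortex of E16.5 embryos and grown for 14 days, either exposed to DRB at 50 uM for 2 hours or untreated (control). DRB inhibits the elongation of transcripts by RNA polymerase II. The second experiment had cultures of the same kind that received the same DRB exposure, with or without bicuculline at 20 uM for 1 hour; bicuculline blocks GABA-A receptors and raises network activity. Each of the 6 groups had 2 libraries, with 50222204 to 74998666 spliced reads each. Nothing in the labels tells separate animals or cultures from repeat libraries, so the spread behind the p-values may be technical. Libraries of a group differed by more than counting noise, with chi-square values per degree of freedom between 5.43 and 15.3 over genes. The P10 columns share a single tissue code. Elimination by name placed the columns of control, of P49 and of DRB in the second experiment. Some column names of the first DRB group mention TTX, and no label states that it was given.

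In a C2H2 zinc finger, a pair of cysteines and a pair of histidines hold a zinc ion, and rows of such fingers read DNA. Many members of this family also carry a KRAB box at the start of the protein. The KRAB box binds the corepressor KAP1 (Trim28), which brings histone methylation to the bound site, often a retroviral insertion. Other members have few fingers and act on RNA, ribosomes or chromosomes.

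Of the 203 members, 200 had a coding transcript in the GENCODE M21 annotation. Their proteins held a median of 10 C2H2 finger motifs, with a range of 0 to 36. A KRAB-type motif, scored over 14 conserved positions of the box with at least 10 required, was found in 106 members. The score separated most members clearly: 97 members matched at least 13 positions, 90 matched 7 or fewer, and 13 lay between. The family was clustered in the genome, with 52 members on chromosome 7 and 26 on chromosome 17, and 90 of the 202 members with coordinates had another member within 100 kb. Coding sequences were mostly distinct. The median member shared 0.0% of its 50-base stretches with another gene, 28 members shared at least 1% and Zfp932 shared the most, 55.5%, so its count is uncertain.

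A KRAB box from each of 2 members and a finger are printed because they define the groups compared. Zfp84 (chr7:29768552-29779821, plus strand) matched all 14 positions of the KRAB score and Zfp568 (chr7:29983955-30028282, plus strand) matched 13. The bases are the coding strand of GRCm38 at chr7:29775344-29775430 and chr7:29997756-29997842, and capitals mark the codons of the matched positions.
Zfp84 KRAB box: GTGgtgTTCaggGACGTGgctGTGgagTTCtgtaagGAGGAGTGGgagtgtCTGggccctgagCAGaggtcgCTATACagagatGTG
Zfp568 KRAB box: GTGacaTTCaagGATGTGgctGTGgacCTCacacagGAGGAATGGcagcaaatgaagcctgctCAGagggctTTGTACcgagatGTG
The finger is from Zfp655 (chr5:145244066-145244149, plus strand), and capitals mark the codons of the cysteines and histidines.
Zfp655 finger: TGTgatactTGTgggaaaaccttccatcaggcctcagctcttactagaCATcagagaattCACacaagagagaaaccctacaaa

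Zfp genes were mostly lower after DRB. Among the 203 members, 137 were lower and 16 were higher in DRB cultures than in control cultures, and 50 did not pass an adjusted p of 0.05 (edgeR's quasi-likelihood test, Benjamini-Hochberg adjustment over 15277 genes, used for all gene-level values below). Over all genes tested, 33.3% were called lower and 30% higher. The members' median log2 fold change was -0.54, against -0.03 over all genes. At least 2-fold lower levels were called for 55 members (27.1%), against 11.4% of all genes and 9.23% of genes with 1000 or more reads. No member was called at least 2-fold higher, against 2.85% of all genes. Genes with 1000 or more spliced reads, the same read minimum as the members, had a median of 0.00. CPM is relative to the library, and total RNA per culture was not measured, so a rise here is a rise relative to other transcripts.

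Median changes differed between KRAB members and the others. Of the 106 members with the KRAB-type motif, 83 were lower and 2 were higher, with a median log2 fold change of -0.74. Of the 94 without it, 52 were lower and 14 were higher, with a median of -0.41. The difference between these 2 groups was not tested. By finger number, the 4 members with 0 fingers had a median of -0.69, with 3 lower and 1 higher. The 29 members with 1 to 4 fingers had a median of -0.04. Medians were -0.63 for 5 to 8 fingers (40 members), -0.62 for 9 to 12 (72 members) and -0.66 for 13 or more (55 members). Other C2H2 families were also low: of 37 Zbtb genes 23 were lower and 2 higher (median -0.77), and of 21 Zscan and Zkscan genes 16 were lower and 1 higher (median -0.97). Of the families of other kinds, 10 of 17 Zc3h (CCCH) genes were lower and 3 higher (median -0.29), and of 14 Zcchc genes 7 were lower and 4 higher (median -0.19). Of 6 Zmym genes 3 were lower and 2 higher (median -0.23), and of 21 Zdhhc genes 4 were lower and 9 higher (median 0.13). In the KAP1 pathway list, which holds Trim28 and its partners, 8 of 18 genes were lower and 4 higher (median -0.10).

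**Figure D1:**
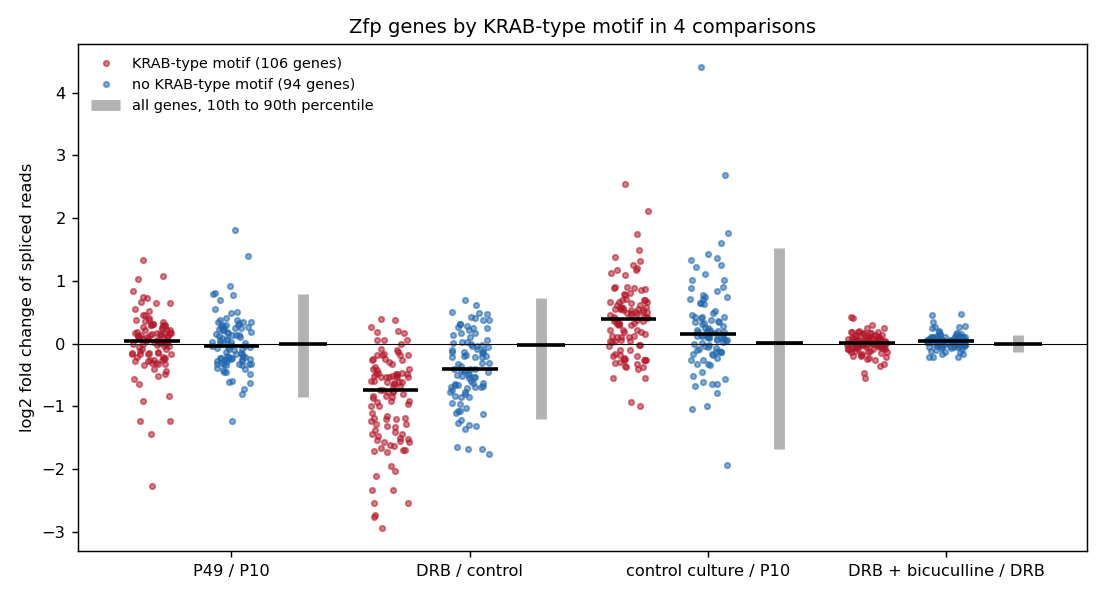
Log2 fold change of spliced reads (vertical axis) of each Zfp gene in 4 comparisons, as points split by KRAB-type motif, with medians as black lines; grey bars span the 10th to 90th percentile of all genes tested. The DRB comparison has medians of -0.74 and -0.41 in the 2 groups, against -0.03 over all genes.

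The fall after DRB was larger at lower read abundance. Among the 83 members under 5 CPM in the 4 neocortex libraries, 77.1% were lower after DRB (median -0.91), against 57.5% of the 1729 genes in that range with the same minimum of 1000 spliced reads (median -0.57). Over all 4974 genes tested in that range, with no read minimum, it was 35.7% (median -0.38). The read sum includes the control libraries, so the genes lowest in neocortex met the minimum only with their reads in culture. Among the 35 members with 20 CPM or more, 40.0% were lower (median -0.13), against 25.5% of the 7161 genes in that range, all of which met the minimum (median 0.15). Across the 203 members, the neocortex level and the DRB log2 fold change had a Spearman rho of 0.48, across the 12032 genes with 1000 or more reads it was 0.45, and across all 15277 genes it was 0.34. These libraries do not enter the DRB contrast; genes are not independent replicates. CPM here counts spliced reads, which also depend on how many junctions a gene has, so these ranges sort genes by reads and not by transcript number.

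**Figure D2:**
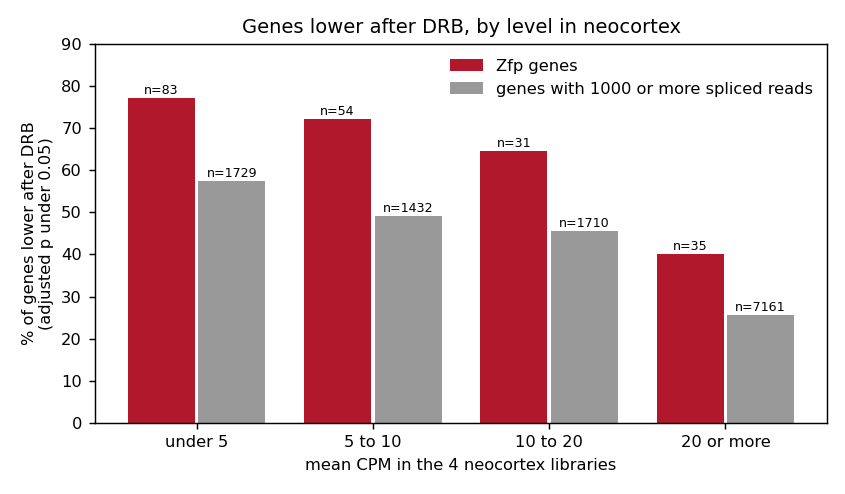
Percent of genes lower in DRB than in control cultures (adjusted p under 0.05), by mean CPM in the 4 neocortex libraries; red bars are Zfp genes and grey bars all genes with 1000 or more spliced reads, with the number of genes above each bar. The red bars fall to 40.0% at 20 CPM or more, against 77.1% under 5 CPM, and stand above the grey bars in each range.

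The 8 members with the largest called falls, among those averaging 2 CPM or more, all carried the KRAB-type motif. Zfp128 (chr7:12881177-12893422, plus strand) had 0.392 and 0.467 CPM in DRB cultures, against 3.69 and 2.94 CPM in control cultures (log2 fold change -2.94, SE 0.21, adjusted p = 3.9e-07). Zfp84 had 0.997 and 1.12 CPM after DRB, against 7.12 and 6.98 CPM in control (-2.73, SE 0.17, adjusted p = 1.5e-07). Every DRB library of both genes lay below every control library, by several fold. Here and below, members named for large called changes or small p-values tend to separate by that choice, so the separation adds no support. Zfp867 had 1.74 and 1.77 CPM after DRB, against 10.0 and 10.4 CPM in control (-2.54, SE 0.18, adjusted p = 3.0e-07). Zfp39 had 0.961 and 0.885 CPM after DRB, against 4.79 and 5.95 CPM in control (-2.54, SE 0.19, adjusted p = 4.1e-07). Again the groups did not overlap. Zfp954, Zfp30, Zfp212 and Zfp202 had log2 fold changes of -2.34, -2.12, -2.03 and -1.96. Their DRB libraries lay between 0.751 and 2.94 CPM, against 3.3 to 11.7 CPM in control. Zfp128 (means of 2.89 CPM at P49 and 3.21 CPM at P10) and Zfp202 (2.45 and 3.12 CPM) needed culture reads to meet the read minimum. The falls of such members are in part set by the choice of members.

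Known KRAB repressors took part in the fall. Zfp568, which silences a placental promoter of Igf2 in the mouse, had 1.58 and 1.79 CPM after DRB, against 5.18 and 5.58 CPM in control (-1.67, SE 0.18, adjusted p = 7.0e-06). Zfp809, which silences retroviruses in embryonic cells, had 2.42 and 1.87 CPM after DRB, against 4.84 and 4.71 CPM in control (-1.16, SE 0.15, adjusted p = 3.7e-05). Zfp110, a binding partner of the p75 neurotrophin receptor, had 6.28 and 5.31 CPM, against 15.9 and 15.5 CPM in control (-1.44, SE 0.12, adjusted p = 9.9e-07). These 3 fell. Zfp57, which keeps the methylation of imprinted loci, went the other way, with 30.2 and 31.2 CPM after DRB and 23.3 and 23.6 CPM in control (0.39, SE 0.088, adjusted p = 0.0022); without TMM scaling its adjusted p was 0.067. Of the 5 list members in this group of repressors, 3 were lower and 1 was higher.

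The members that rose did so by less than those that fell. Zfp692 had 42.7 and 44.2 CPM after DRB, against 25.5 and 27.9 CPM in control (0.70, SE 0.084, adjusted p = 1.8e-05). Zfp575 had 6.3 and 6.58 CPM, against 4.01 and 4.42 CPM in control (0.61, SE 0.13, adjusted p = 0.0013). Zfp365, whose human counterpart binds DISC1, had 18.1 and 18.7 CPM, against 13.2 and 13.2 CPM in control (0.48, SE 0.057, adjusted p = 1.6e-05). The DRB libraries of all 3 stood above the control libraries. Zfp239 (0.51), Zfp536 (0.47) and Zfp511 (0.41) were also called higher; Zfp536 is a repressor of neuronal differentiation. The call of Zfp239 was lost without TMM scaling (adjusted p = 0.071) and without the first DRB library (adjusted p = 0.056). That of Zfp536 was lost without TMM scaling (0.15), with DESeq2 (0.096) and without the first DRB library (0.14), the first control library (0.072) or the second control library (0.092). Without TMM scaling 7 members in all were called higher and 167 lower, and without the first DRB library 10 were called higher.

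Zfp628 was called higher (0.42, SE 0.089, adjusted p = 0.0016), but 93.4% of the reads listed under it lay outside its annotated span (chr7:4915217-4922002, plus strand), on junctions downstream in the span of Nat14. On its own 2 junctions it had 16 and 12 reads after DRB, against 55 and 52 reads in control. The direction on its own junctions was thus the opposite of the call.

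**Figure D3:**
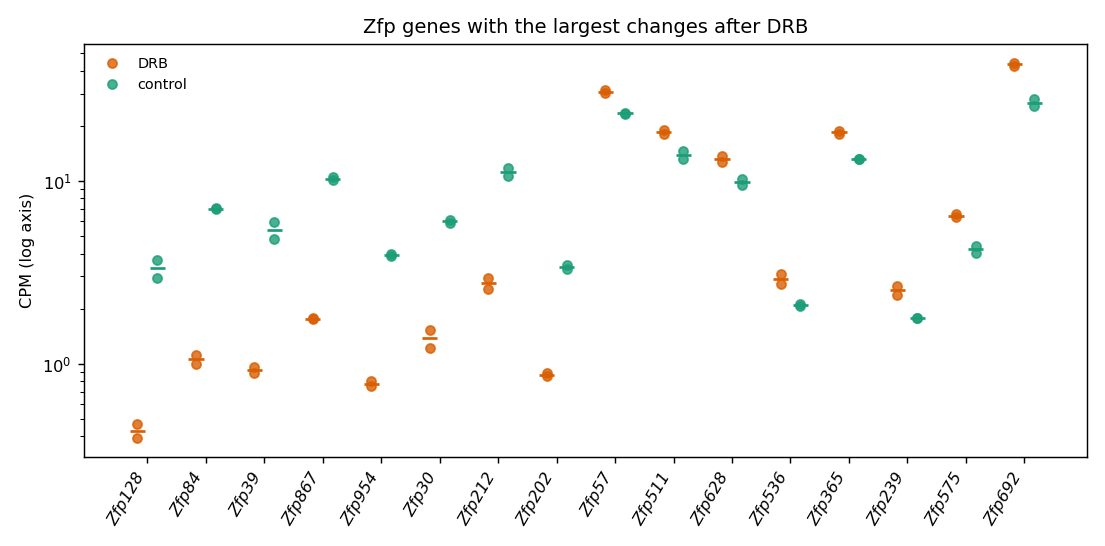
CPM (log axis) of the 16 Zfp genes with the largest called changes after DRB, ordered by log2 fold change; orange points are the 2 DRB libraries, green points the 2 control libraries, and short lines their means. DRB points lie below control points for the first 8 genes and above them for the other 8, of which Zfp628 counts mostly reads in the span of Nat14.

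The 10 members with the most spliced reads had log2 fold changes between -0.21 and 0.48 after DRB, some of them called. Of the 10 with the most reads, Zfp106, an RNA-binding protein that mice need to keep motor neurons, had 178 and 182 CPM in DRB cultures, against 193 and 181 CPM in control (-0.06, adjusted p = 0.32). Zfp207, the orthologue of the human kinetochore protein BuGZ, had 205 and 211 CPM, against 201 and 200 CPM in control (0.05, adjusted p = 0.34). Zfp326, whose human counterpart links RNA polymerase II elongation with splicing, had 69.2 and 71.0 CPM, against 69.2 and 70.4 CPM in control (0.01, adjusted p = 0.93). Neither Zfp512 (0.10) nor Zfp821 (0.02) passed the test. Zfp523, the orthologue of human ZNF76, was higher with 88.3 and 87.5 CPM, against 66.9 and 69.2 CPM in control (0.37, SE 0.05, adjusted p = 4.9e-05). Zfp706 (0.31), Zfp335 (0.24) and Zfp365 were higher too, and Zfp236 was lower (-0.21).

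Of 7 members with a role in RNA or at the ribosome, 1 was higher and 0 were lower (median 0.03). That member was Zfp346, which binds double-stranded RNA, with 29.2 and 29.7 CPM after DRB and 23.2 and 24.4 CPM in control (0.31, SE 0.072, adjusted p = 0.003). Zfp593 (0.28, adjusted p = 0.17) and Zfp622 (-0.14, adjusted p = 0.21), both factors of large ribosomal subunit maturation, did not pass. Of 12 members with a neural or developmental role, 3 were higher and 4 lower (median -0.07). The smallest p-values in that list beside Zfp365 were those of Zfp219, a partner of Sox9, with 17 and 17.3 CPM after DRB and 25.9 and 27.2 CPM in control (-0.63, adjusted p = 2.6e-05), and of Zfp292, with 5.11 and 4.91 CPM after DRB and 9.93 and 9.43 CPM in control (-0.95, adjusted p = 3.9e-05). Both of these were lower in every DRB library.

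Cell type markers moved between the same libraries. The summed level of 3 dividing-cell markers was 70.5 to 76.1 CPM after DRB, against 223 to 253 CPM in control, and all 3 were at or above 1 CPM in both groups. The endothelial and mural markers summed to 40.3 to 45.1 CPM after DRB, against 134 to 150 CPM in control. In each group 3 of 5 were at 1 CPM or more, but not the same 3. Most of the sum was Kdr (24.2 CPM after DRB, 100 CPM in control) and Pdgfrb (16.1 and 39.7 CPM). Flt1 was lower too (0.652 and 1.22 CPM), and Pecam1 was higher (1.7 and 0.846 CPM). The 6 neuronal markers, all detected, summed to 3280 to 3340 CPM after DRB, against 1800 to 1870 CPM in control. The immature-neuron markers, with 3 of 4 detected, summed to 1780 to 1800 CPM after DRB, against 1050 to 1080 CPM in control. Their part in the results was not tested. In such bulk samples, fewer cells of a type and less RNA per cell cannot be told apart.

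By position, on chromosome 7, 37 of 52 members were lower (median -0.74), on chromosome 17 it was 16 of 26 (median -0.53), and on the other chromosomes 84 of 125 (median -0.52). A stretch of chromosome 7 chosen after its values were seen, chr7:29768552-30134950, held 14 members, of which 13 were lower after DRB and Zfp420 was not called (-0.48, adjusted p = 0.057). Their log2 fold changes ran between -2.73 (Zfp84) and -0.32 (Zfp383). Neighbours in that stretch thus differed widely in the size of the fall.

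Promoters were searched because members moved together. Promoter windows of 300 bases were matched by symbol in RefSeq (GRCm38.p6) for 164 members, with the first listed window of each gene used. The motif ACTACANNTCCC, searched on both strands, is the kind of site bound by the mouse factor Zfp143, itself a member, and its paralogue Zfp523. It was present in 27 of the 164 members' promoters, and in 535 of 27025 promoters of all genes (1.98%). Among KRAB members 20 of 93 held it (21.5%), and among the others 7 of 69 (10.1%). After DRB the 27 members that held the motif had a median log2 fold change of -0.67, with 20 lower and 1 higher, and the 137 others had a median of -0.55, with 90 lower and 13 higher. At P49 against P10, 5 of the 27 were higher and 0 lower, against 30 higher and 28 lower of the others. A match is a description of letters, and no difference between these groups was tested. Zfp84 and Zfp128, the members of 2 CPM or more with the largest falls, both held the motif. Their windows are given in GRCm38.p6, plus strand, at chr7:29768302-29768601 for Zfp84 and chr7:12880928-12881227 for Zfp128, and capitals mark the motif as read on the opposite strand.
Zfp84 promoter: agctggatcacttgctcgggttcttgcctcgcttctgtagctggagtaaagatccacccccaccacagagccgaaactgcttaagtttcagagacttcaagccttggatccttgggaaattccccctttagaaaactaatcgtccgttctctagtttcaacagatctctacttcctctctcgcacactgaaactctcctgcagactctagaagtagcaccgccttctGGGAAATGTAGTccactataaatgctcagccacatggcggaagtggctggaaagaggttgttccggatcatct
Zfp128 promoter: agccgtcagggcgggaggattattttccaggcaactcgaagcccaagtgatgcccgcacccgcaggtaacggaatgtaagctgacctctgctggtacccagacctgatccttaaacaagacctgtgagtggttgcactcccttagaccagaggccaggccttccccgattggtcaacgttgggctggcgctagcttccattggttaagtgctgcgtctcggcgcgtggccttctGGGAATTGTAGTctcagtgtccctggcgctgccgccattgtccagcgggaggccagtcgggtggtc

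DRB also moved the use of junctions within members. Of 200 members tested, 12 had changed junction usage (diffSpliceDGE in edgeR, Simes p per gene, adjusted p under 0.05), against 6.93% of 13314 genes, so the members' share was near that of all genes. Without the first DRB library 7 were called, without the second DRB library 5, and with only the DRB and control libraries fitted 19.

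Zfp655 changed in which of its exons was read. The junction into its last exon, which codes for all 6 of its fingers (chr5:145243575-145247302, plus strand; the finger printed above lies in it), had 60 and 54 reads in DRB cultures, against 261 and 202 reads in control cultures. It held 15.4% and 13.2% of the gene's spliced reads after DRB, against 54.1% and 41.9% in control (log2 relative to the gene -1.75; gene adjusted p = 3.2e-09). The junction at chr5:145235864-145237049 had 79 and 81 reads after DRB, against 21 and 35 reads in control (1.79 relative to the gene). The finger exon was thus joined in a smaller share of reads in both DRB libraries while an upstream junction took a larger one. The gene as a whole was lower (-0.31, adjusted p = 0.025).

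Zfp207 showed a change at its 3′ end. Its junction at chr11:80403663-80404740 had 364 and 374 reads after DRB, against 83 and 91 reads in control, 3.17% and 2.96% of the gene's reads against 0.769% and 0.766% (2.00 relative to the gene; gene adjusted p = 9.3e-20). The level of the gene did not change by the test. In neocortex the same junction held 0.850% and 0.818% of reads at P49 and 0.552% and 0.698% at P10, so both DRB libraries stood above all 6 others.

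In Zfp956 a later splice donor gained weight. The donor after position 47957724 of chromosome 6, which lengthens an exon by 122 bases, had 47 and 43 reads after DRB, against 25 and 28 reads in control. The usual donor had 47 and 52 reads after DRB, against 100 and 115 reads in control. The later donor thus took 50.0% and 45.3% of the reads to their common acceptor after DRB, against 20.0% and 19.6% in control (1.59 relative to the gene; gene adjusted p = 0.00013). The added bases are shown up to the stop codon that they bring into frame in the GENCODE transcript, which is annotated as a target of nonsense-mediated decay (chr6:47957603-47957682, plus strand, GRCm38; the stop codon is in capitals).
Zfp956 extension: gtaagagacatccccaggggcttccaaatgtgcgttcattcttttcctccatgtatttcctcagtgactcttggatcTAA
The whole gene was lower after DRB, with 4.48 and 4.81 CPM against 8.55 and 8.32 CPM in control (-0.86, SE 0.11, adjusted p = 2.3e-05).

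Among the other calls, in Zfp287 the leading junction had 17 and 18 reads after DRB, against 0 and 7 reads in control (gene adjusted p = 0.0013). The call of Zfp628 (gene adjusted p = 2.6e-05) compared its own 2 junctions with those in the span of Nat14. Zfp560, Zfp236, Zfp788, Zfp383, Zfp266, Zfp790 and Zfp740 complete the 12.

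**Figure D4:**
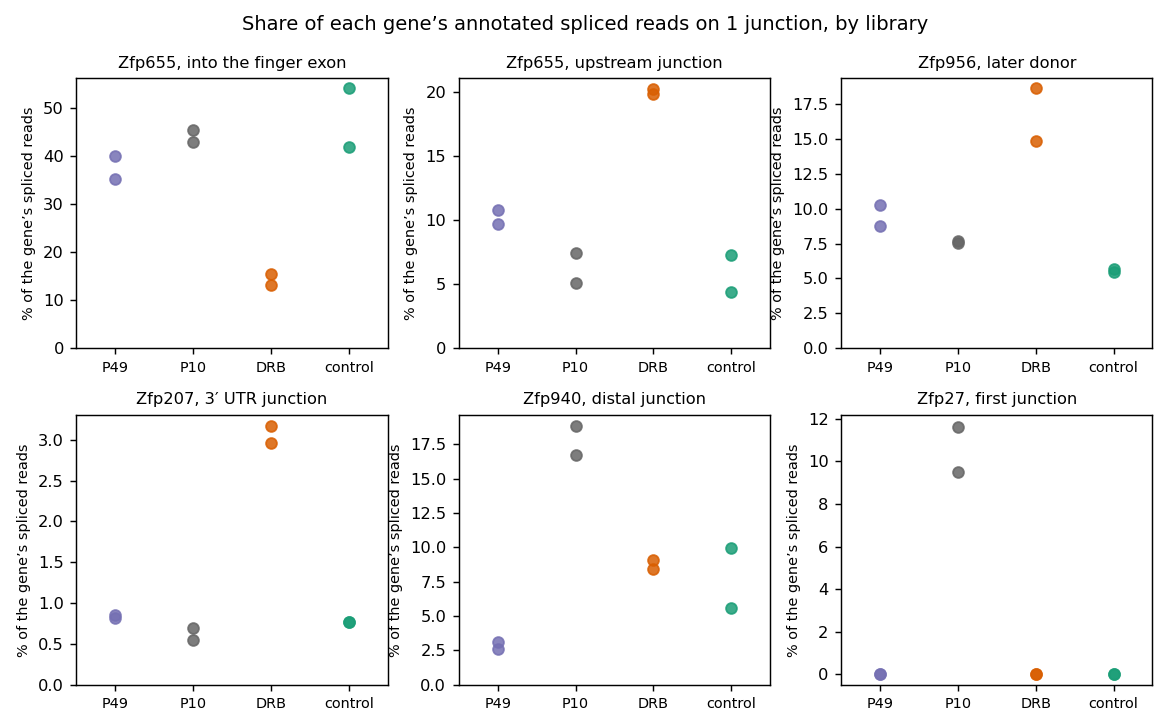
Percent of a gene's annotated spliced reads that lay on 1 junction (vertical axes, from 0 except for Zfp27, where the axis starts just below 0), with 1 point per library in P49, P10, DRB and control groups. The junction into the finger exon of Zfp655 holds 15.4% and 13.2% after DRB, and the first junction of Zfp27 is above 0 in the P10 libraries alone.

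With age the family split evenly. Between P49 and P10 neocortex 40 members were higher, 41 lower and 122 not called, against 28.2% of all genes higher and 29% lower. The median log2 fold change was 0.02. The members' share of calls thus lay below that of all genes in both directions. Without TMM scaling the split was 33 higher and 52 lower. KRAB members had 17 higher and 13 lower of 106, and the 94 others had 23 higher and 27 lower. The 29 members with 1 to 4 fingers leaned down, with 17 lower and 6 higher (median -0.24). In the KAP1 pathway list 11 of 18 genes were lower and 2 higher (median -0.20).

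Zfp365 had the largest called rise, with 181 and 174 CPM at P49, against 51.6 and 49.6 CPM at P10 (1.81, SE 0.05, adjusted p = 5.2e-10). Zfp367 had 12.5 and 10.7 CPM at P49, against 4.84 and 4.05 CPM at P10 (1.39, SE 0.12, adjusted p = 1.4e-06). Zfp941 had 7.01 and 7.63 CPM, against 2.91 and 2.85 CPM at P10 (1.34, SE 0.17, adjusted p = 4.9e-05). The P49 libraries of the 3 genes were at least double the P10 libraries, which their choice by the largest called rises makes likely. Zfp612 (1.08), Zfp605 (1.03), Zfp239 (0.92), Zfp14 (0.83) and Zfp395 (0.81) followed. Zfp106, with the most spliced reads of the family, had 277 and 283 CPM at P49, against 167 and 161 CPM at P10 (0.77, SE 0.046, adjusted p = 9.7e-08).

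Zfp57 had the largest called fall with age. It had 3.71 and 3.28 CPM at P49, against 15.8 and 18.2 CPM at P10 (-2.28, SE 0.1, adjusted p = 9.7e-09). Zfp282 had 13.1 and 12.0 CPM at P49, against 35 and 33.8 CPM at P10 (-1.45, SE 0.074, adjusted p = 2.9e-08). For both, each P49 library was under each P10 library by more than 2-fold, which the choice by the largest called falls makes likely. Zfp772, Zfp41 and Zfp647 each had a log2 fold change of -1.23, and Zfp324 (-0.91), Zfp811 (-0.84) and Zfp362 (-0.80) followed. In the RNA and ribosome list 4 of 7 were lower and 1 was higher (median -0.28). Zfp326 was lower with 45.6 and 45.3 CPM at P49, against 61.6 and 62.3 CPM at P10 (-0.45, SE 0.048, adjusted p = 9.5e-06), and Zfp207 was lower too (-0.39, adjusted p = 2.1e-05). In the neural and developmental list 3 of 12 were higher and 3 lower. Zfp148 was among the higher ones (0.55, adjusted p = 9.5e-05), and Zfp711, mutated in human X-linked intellectual disability, among the lower ones (-0.72, adjusted p = 9.3e-05). Of the KRAB repressors with known targets, Zfp809 was higher (0.65, adjusted p = 0.002), and Zfp568 was not called (-0.44, adjusted p = 0.074).

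Of the other members with many reads, Zfp523 (0.13) and Zfp236 (0.29) were called higher at P49, and Zfp821 (-0.62), Zfp512 (-0.23) and Zfp706 (-0.22) lower. Zfp335, which neural progenitors need, was not called (-0.10, adjusted p = 0.13).

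Markers differed between the ages as well. The 5 oligodendrocyte markers, all detected at both ages, summed to 2420 to 2480 CPM at P49, against 764 to 889 CPM at P10. The 3 detected of 4 immature-neuron markers summed to 233 to 257 CPM at P49, against 1280 to 1430 CPM at P10, and Sox11, an intronless gene, had no spliced reads to test. The 3 dividing-cell markers summed to 4.74 to 5.83 CPM at P49, with 1 of 3 at 1 CPM or more, against 40.4 to 41.8 CPM at P10. Their part in the results was not tested.

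Calls at the 2 ages and after DRB used separate libraries. Of the 40 members higher at P49, 28 were lower after DRB (70%), against 35.9% of the 3825 genes with 1000 or more reads that were higher at P49. Of the 41 members lower at P49, 20 were lower after DRB (48.8%), against 32.9% of 3858 such genes. Of the 122 members not called with age, 89 were lower after DRB (73%), against 38.2% of 4349 such genes. No difference between these shares was tested.

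Junction usage changed with age in 5 of 200 members, against 7.22% of all genes. Zfp940 (chr7:29833620-29853669, minus strand), a KRAB member, had 10 and 10 reads on the junction at chr7:29851018-29853496 at P49, against 77 and 81 reads at P10. From the shared splice site this junction took 11.6% and 13.9% of reads at P49, against 64.2% and 58.7% at P10 (-2.63 relative to the gene; gene adjusted p = 2.4e-08). The gene's level did not change by the test (-0.16, adjusted p = 0.28), so the P49 libraries had more of the alternative junction, with 76 and 62 reads against 43 and 57 reads at P10. Zfp27 (chr7:29893333-29906572, minus strand) had 0 and 0 reads on the junction at chr7:29904060-29906053 at P49, against 33 and 39 reads at P10 (gene adjusted p = 1.6e-07). The 4 culture libraries of the first experiment had 0 reads there as well, so the reads were in the P10 libraries alone, which share a tissue code. Zfp932, in which the junction at chr5:109996634-110006943 had 55 and 22 reads at P49 and 89 and 123 reads at P10 (gene adjusted p = 0.00043), shares 55.5% of its coding 50-base stretches with other genes. Zfp207 (gene adjusted p = 0.00045) and Zfp598 (gene adjusted p = 0.0018) were also called. In Zfp598, a ubiquitin ligase that senses collided ribosomes in human cells, the junction at chr17:24679406-24679508 had 177 and 160 reads at P49, against 274 and 458 reads at P10. This was 7.69% and 8.34% of the gene's reads at P49, against 10.4% and 15.4% at P10, so the P10 libraries lay far apart. Leaving out the first P49 library gave 10 called members, and leaving out the second gave 8.

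Control cultures and P10 neocortex differed in a direction that favoured the cultures. Of the 203 members, 100 were higher in control cultures and 27 lower, against 37.1% of all genes higher and 37.1% lower. Of genes with 1000 or more spliced reads, 40.2% were higher and 37.8% lower. The members' median log2 fold change was 0.28, against 0.01 over all genes and 0.03 over genes with 1000 or more reads. The read sum that chose the members includes the control libraries, so it favours genes with high levels in culture. Among KRAB members 59 of 106 were higher and 9 lower (median 0.40), and among the 94 others 40 were higher and 17 lower (median 0.15). On chromosome 17, 18 of 26 members were higher and 3 lower (median 0.52). The Zbtb genes had 16 higher and 5 lower of 37 (median 0.36), the Zscan and Zkscan genes 11 higher and 1 lower of 21 (median 0.53), and the KAP1 pathway list 11 higher and 3 lower of 18 (median 0.29). The control libraries are shared with the DRB comparison and the P10 libraries with the age comparison, so the 3 sets of fold changes are not independent. Of the 4 groups of the first experiment, control had the highest mean for 113 members (55.7%), P49 for 44 (21.7%), P10 for 28 (13.8%) and DRB for 18 (8.87%). Over the 12032 genes with 1000 or more reads the shares were 33% for control, 26.9% for P49, 17.9% for P10 and 22.2% for DRB.

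The largest rise was that of Zfp185, an actin-associated LIM protein with no finger motif found, with 75.9 and 66.9 CPM in control cultures, against 2.87 and 3.83 CPM at P10 (4.41, SE 0.15, adjusted p = 2.1e-10). Zfp395, whose human counterpart binds the promoter of the huntingtin gene, had 27.7 and 26.6 CPM, against 4.02 and 4.42 CPM at P10 (2.69, SE 0.15, adjusted p = 1.4e-08). Zfp867 had 10.0 and 10.4 CPM, against 1.38 and 2.09 CPM at P10 (2.55, SE 0.18, adjusted p = 8.3e-08). The culture libraries stood well clear of the P10 libraries in all 3, which the choice by size of the rise makes likely. Zfp229 (2.12), Zfp367 (1.76), Zfp568 (1.75), Zfp800 (1.60) and Zfp760 (1.49) were next. Zfp229, with 1078 reads in all, had 1.0 and 1.15 CPM at P10, against 4.68 and 4.74 CPM in control cultures. It met the read minimum only with its culture reads, so its rise is in part set by the choice of members. The same holds for Zfp185, with means of 2.64 CPM at P49 and 3.35 CPM at P10. It also holds for Zfp568 (1.19 and 1.6 CPM) and Zfp760 (3.2 and 3.15 CPM), and may hold for other members low in neocortex. Zfp219 was higher with 25.9 and 27.2 CPM in control cultures, against 10.4 and 10.4 CPM at P10 (1.36, SE 0.08, adjusted p = 2.3e-08). Of the 5 KRAB repressors with known targets 4 were higher and 0 lower, among them Zfp110 (0.88) and Zfp57 (0.46).

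Zfp365 led the members lower in culture, with 13.2 and 13.2 CPM in control cultures, against 51.6 and 49.6 CPM at P10 (-1.94, SE 0.055, adjusted p = 5.8e-11). Zfp523 had 66.9 and 69.2 CPM, against 145 and 135 CPM at P10 (-1.04, SE 0.05, adjusted p = 3.4e-09). Zfp335 was lower as well (-0.65, adjusted p = 6.4e-07). These 3 separated without overlap, which their small p-values make likely. Zfp941 (-1.0), Zfp239 (-0.99), Zfp940 (-0.93), Zfp783 (-0.88), Zfp341 (-0.79) and Zfp771 (-0.68) followed. Of the RNA and ribosome list 3 were higher, with Zfp207 (0.21) and Zfp106 (0.19) among them, and Zfp598 was lower (-0.33, adjusted p = 0.00047). Zfp512 (0.35), Zfp326 (0.17) and Zfp236 (0.33) were called higher, Zfp821 (-0.46) lower, and Zfp706 was not called (0.07, adjusted p = 0.18).

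Cell type markers also differed between the same libraries. The 6 neuronal markers, all detected, summed to 1800 to 1870 CPM in control cultures, against 4150 to 4250 CPM at P10. Snap25, Syt1, Rbfox3 and Slc17a7 were lower in culture, whereas Map2 (436 against 378 CPM) and Gad1 (371 against 226 CPM) were higher. The 3 dividing-cell markers summed to 223 to 253 CPM in control cultures, against 40.4 to 41.8 CPM at P10. The astrocyte markers, with 4 of 5 detected, summed to 1520 to 1530 CPM in control cultures, against 634 to 671 CPM at P10. The 5 oligodendrocyte markers summed to 49.5 to 61.4 CPM in control cultures, with 4 of 5 at 1 CPM or more, against 764 to 889 CPM at P10. The endothelial and mural markers summed to 134 to 150 CPM in control cultures, with 3 of 5 at 1 CPM or more, against 220 to 224 CPM at P10, with 4 of 5. Pecam1 (0.846 against 32.6 CPM), Flt1 (1.22 against 41.4 CPM) and Pdgfrb (39.7 against 53.5 CPM) were lower in culture. Kdr was not (100 against 94.6 CPM). The 5 microglial markers summed to 31.4 to 40.8 CPM in control cultures, against 199 to 215 CPM at P10. Most of that gap was Csf1r (15.0 against 174 CPM). Cx3cr1 (3.34 against 7.24 CPM) and P2ry12 (0.167 against 13.3 CPM) were lower in culture too. C1qa (9.21 against 6.36 CPM) and C1qb (8.34 against 6.33 CPM) were higher. The part of these cell type markers in the results was not tested.

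**Figure D5:**
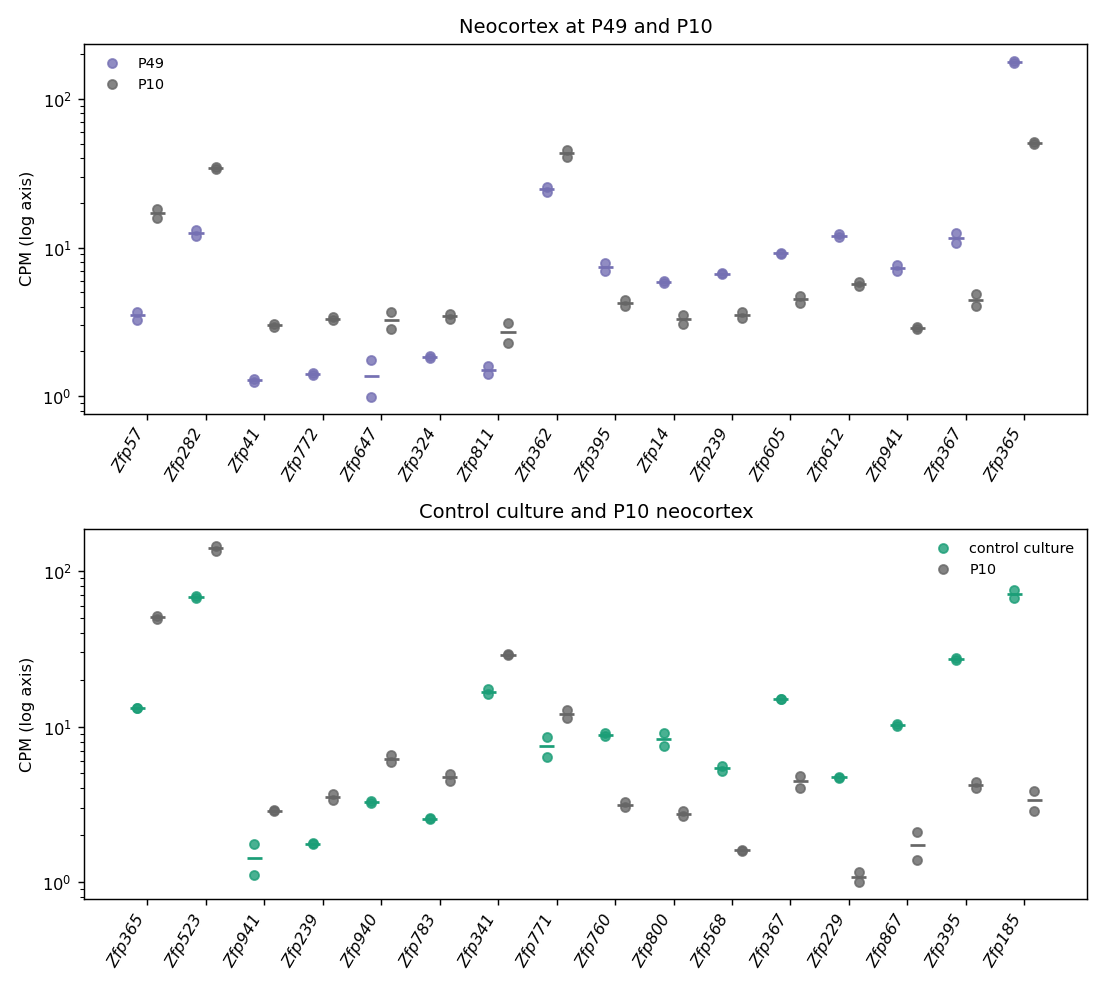
CPM (log axes) of the Zfp genes with the largest called changes, ordered by log2 fold change, with 1 point per library and lines at the means: P49 (purple) and P10 (grey) neocortex above, control cultures (green) and P10 neocortex (grey) below. Zfp365 is the highest at P49, with 181 and 174 CPM, and Zfp185 stands at 75.9 and 66.9 CPM in control cultures.

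Junction usage differed between control cultures and P10 neocortex in 10 of 200 members, against 14.8% of all genes. The count rested on single libraries: without the first control library 1 member was called, without the second 3, without the first P10 library 5 and without the second 4. Zfp27 was called by the same P10 junction as above (gene adjusted p = 2.6e-07). In Zfp760 the junction at chr17:21721071-21721987 had 48 and 28 reads in control cultures, against 4 and 5 reads at P10 (gene adjusted p = 0.0075). The gene as a whole was also higher in culture (1.49). As a share of the gene's reads it was 9.88% and 5.42% in control cultures, against 1.9% and 2.06% at P10. The 2 control libraries thus lay far apart. In Zfp84 the junction at chr7:29771404-29775337, which ends just before the exon that holds the KRAB box printed above, had 71 and 72 reads in control cultures, against 18 and 24 reads at P10. That is 18.6% and 17.3% of the gene's reads in control cultures, against 7.44% and 7.97% at P10 (1.21 relative to the gene; gene adjusted p = 0.027). Zfp598 (gene adjusted p = 0.0087) and Zfp207 (gene adjusted p = 0.021) were called as well.

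Bicuculline under DRB moved no member past the threshold. Among the 203 members 0 were higher and 0 lower in cultures with DRB and bicuculline than in cultures with DRB alone, against 0.183% of 14195 genes higher and 0.0282% lower. At an unadjusted p under 0.05 there were 8 higher and 2 lower members, against 306 higher and 265 lower of the 14195 genes. DESeq2 also called 0 members. Log2 fold changes ran between -0.55 and 0.47, and the smallest adjusted p was 0.86. Zfp106 had 186 and 179 CPM with bicuculline, against 179 and 178 CPM with DRB alone (0.04, adjusted p = 1.0). Zfp292 had 9.52 and 10.4 CPM with bicuculline, against 8.52 and 8.42 CPM with DRB alone (0.24, SE 0.093, adjusted p = 1.0). Even where the libraries did not overlap, as for Zfp292, the difference did not pass. Junction usage was called in 0 of 198 members, against 0.0164% of 12181 genes. At an unadjusted p under 0.05 there were 2 members, against 184 of the 12181 genes. With 2 libraries a group these values do not show that the groups act alike.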

How the data were processed

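The deposited tables hold counts of reads across exon-exon junctions, as whole numbers with no normalisation, per the file headers. The submitters' processing notes name STAR 2.4.0f1 as a tool and mm10 as a build (GRCm38); the counting method is not stated in the sources used. Distinct junctions annotated in GENCODE M21 were summed per gene symbol, and reads under no symbol (0.418% to 0.531%) were left out. Rows hold 3 cells fewer than the header, so columns were read by number. Their names show a group but no replicate, and 72 other columns of per-library values were not used, so intron retention is not reported. Gene sums were tested in edgeR 4.0.16 (R 4.3.3; TMM, filterByExpr, quasi-likelihood, two-sided, adjusted p under 0.05), each table in 1 fit. CPM uses TMM library sizes. Junction usage was tested with diffSpliceDGE. DESeq2 1.42.0 was an alternative. Scripts were tested on simulated data.

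Members and lists were chosen with earlier results of these data known. Named members were, per comparison, the 8 largest called changes in each direction at 2 CPM or more, the 10 members with the most reads, the 3 smallest p-values of each role list and the 5 smallest for junction usage. Fingers and KRAB-type motifs were searched in the longest coding transcript. Counts limit precision through counting error, and reads carry no molecular identifiers. The comparison with genes that met the same read minimum was added after the data were seen.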

Additional observations from a re-analysis of the deposited data

How the results depend on the processing

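Counts of Zfp genes called at gene level stayed within 1.5 times the reported ones under every alternative run (DESeq2, no TMM factors, no filter on low counts, every junction, only the groups compared and leaving out each library), with these exceptions for DRB against control: 7 members higher without TMM factors, and 10 to 15 higher (reported 16) when single libraries were left out. Without TMM factors the median of all genes moved to -0.22 after DRB and to 0.12 for control culture against P10, and that of the members to -0.73 and 0.39. Leaving out single libraries gave 31 to 37 higher and 31 to 39 lower at P49 against P10, 124 to 131 lower after DRB, and 85 to 97 higher and 19 to 26 lower in control culture against P10. Junction usage varied more: 19 members after DRB with only the groups compared, 6 in control culture against P10 with 20 or more reads per junction, and under single-library exclusions 5 to 10 at P49, 5 to 8 after DRB and 1 to 5 in control culture; the cause was not tested. Of the values of members named for the largest called changes, 424 kept direction and call, 8 lost the call and 0 reversed. Members named by the other rules were not counted here, and the largest changes are the least likely to lose a call. For bicuculline the replicate block, set by the letter that ends each name, gave 0 higher and 0 lower, as without it; same-letter deviations had r = 0.10 over 14195 genes. For the first table, no paired analysis was possible because its column names carry no replicate labels. Intron retention and its alternatives were not run, because the columns they need could not be assigned.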
